A study of Homo sapiens with 2 samples.

Results

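The FOS and JUN genes encode the core subunits of AP-1, and all 7 of them were read in HSC-1 cells after transfection with siNC or siLINP1. They are FOS, FOSB, FOSL1, FOSL2, JUN, JUNB and JUND, found by symbol among the 44591 genes of the deposited count table. The genes were chosen by family membership while the siNC and siLINP1 counts of the same libraries were already known, so every difference below is a description and carries no test. HSC-1 is a cell line from a cutaneous squamous cell carcinoma, siNC is a control siRNA, and siLINP1 is siRNA against the long non-coding RNA LINP1. The labels give transfection at about 70% confluency for both conditions. Cells then spent 6 h in DMEM without serum and 24 h in DMEM with 10% serum, whereas the methods of the study give a higher confluency and a later harvest for transfections in general. Each condition had 1 library, so an effect of the siRNA and any other difference between the cultures cannot be told apart. All intervals below are 95% intervals of counting error alone.

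AP-1 is a dimer that binds DNA through a basic region and a leucine zipper. JUN proteins can pair with each other or with FOS proteins, whereas FOS proteins need a JUN partner. FOS, FOSB, JUN and JUNB belong to the immediate early genes, whose mRNAs appear shortly after growth factors, cytokines or stress reach a cell and are then removed quickly. FOSL1 (FRA-1) and FOSL2 (FRA-2) are slower FOS relatives without the strong activation domain of FOS and FOSB, and JUND is usually transcribed steadily. In keratinocytes and squamous carcinoma, AP-1 controls genes of differentiation, inflammation and invasion, and MAP kinases act on it both at its promoters and on its proteins.

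The siNC library held 18829544 counted reads and the siLINP1 library 15383081. LINP1 itself had 167 reads in siNC and 23 in siLINP1, a log2 fold change of -2.65 (-3.35 to -2.02), in the direction of the labels. Most of the defining squamous genes were sparse in both libraries. Of 12 squamous markers, 7 were under 1 RPKM (a read count divided by the length of the gene and by the total reads of the library) in both, among them KRT5 with 32 and 24 reads, TP63 with 6 and 8 reads and CDH1 with 14 and 3 reads. The better-read markers were PERP with 1158 and 1398 reads, SFN with 264 and 138 and KRT14 with 243 and 87. The mesenchymal gene VIM had 61097 and 41992 reads, and the 8 mesenchymal markers summed to 2059.8 and 1689.9 RPKM. Most of this sum came from VIM, at 1519 and 1278 RPKM, and SPARC, at 505 and 382 RPKM. The markers were not uniformly high, since 2 of the 8, COL1A2 and COL3A1, were under 1 RPKM in both libraries. Of 7 blood cell markers, 4 had no read, which allows up to 3 reads each, and all 7 were under 1 RPKM. The 14 gastric markers summed to 445 reads in siNC and 54 in siLINP1, with PGC at 194 and 0 reads. Of the 6 with at least 10 reads, 4 were lower and 2 higher by more than 1.5-fold, the latter being ATP4A with 13 and 28 reads and MUC6 with 17 and 23 reads. The part of these markers in the values of the FOS and JUN genes was not tested.

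The stretches of DNA around the start of each gene were read from GRCh37, the build of the count table, to show which known control motifs the family shares. The search covered 450 bases before to 50 bases after the gene start that the table gives, on both strands, and the same window was read for 19219 protein-coding genes. The CArG box is the site of serum response factor (SRF), and 2 members hold a match to it, FOS and FOSB, against 2.25% of all windows. The match lies 264 bases before the start of FOS at chr14:75745217-75745226, and 273 bases before the start of FOSB at chr19:45970980-45970989. Both are shown on the plus strand with the CArG box in capitals, within chr14:75745197-75745246 and chr19:45970960-45971009, because these genes had the largest fold changes of the family.
FOS: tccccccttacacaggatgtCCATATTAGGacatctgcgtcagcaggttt
FOSB: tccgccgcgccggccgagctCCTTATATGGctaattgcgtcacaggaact

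The cyclic AMP response element TGACGTCA was matched in FOSB and JUND, against 2.73% of windows. JUND is shown because it was the member with a lower value, on the minus strand within chr19:18392605-18392652 and with the element in capitals, 166 bases before its start. FOSB holds its match 324 bases before the start.
JUND: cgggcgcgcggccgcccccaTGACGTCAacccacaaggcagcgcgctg

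Its first bases, the shorter motif TGACGT, which also lies inside each full element, were found in 6 of 7 members and in 11.5% of windows. JUNB was the member without it. The AP-1 site TGACTCA, to which AP-1 itself binds, was found in FOSL2 alone of the 7 and in 5.99% of windows. JUN holds the variant site TGACATCA, found in 2.72% of windows, and its match spans the start that the table gives. These 2 are shown on their own strands with the site in capitals, within chr2:28615709-28615755 on the plus strand and chr1:59249759-59249806 on the minus strand.
FOSL2: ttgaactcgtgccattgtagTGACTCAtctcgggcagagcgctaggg
JUN: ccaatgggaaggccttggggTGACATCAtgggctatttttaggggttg

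TATAAA was found in FOS, FOSB, FOSL1 and JUNB and in 17.8% of windows, and CCAAT in FOSL2, JUN, JUNB and JUND and in 48.7%. In FOS the TATAAA match lies 18 bases past the start of the table, since the table starts FOS at 75745481 and the GENCODE transcript starts at 75745531. The starts also differ for other members. JUN starts at 59249785 in the table and 59249719 in GENCODE, and FOSL1 at 65667997 and 65667859. FOSL2 starts at 28615779 and 28615725, so its AP-1 site at chr2:28615729-28615735 lies inside the GENCODE transcript. Positions of motifs count from the start of the table. A match is a match of letters only, and binding was not measured.

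**Figure D1:**
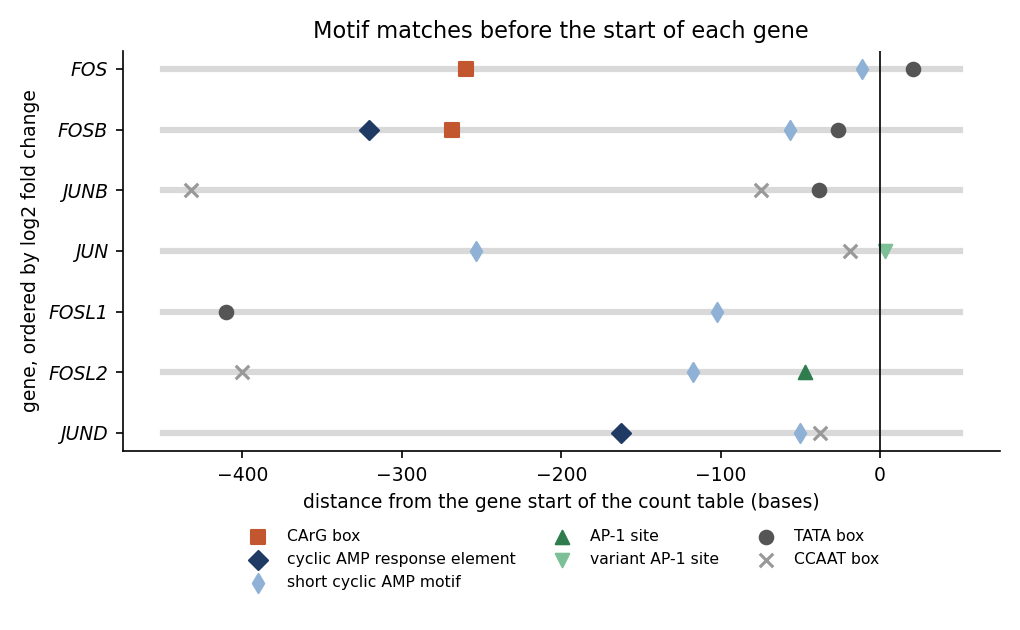
Motif matches from 450 bases before to 50 bases after the table's start of each FOS and JUN gene, in GRCh37. The horizontal axis is the distance from the start in bases, genes are ordered from the highest (top) to the lowest log2 fold change, and each symbol is 1 match; short motifs inside a full cyclic AMP response element are not drawn. The CArG boxes of FOS and FOSB sit 264 and 273 bases before the start.

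FOSL1 was the most abundant member and FOS and FOSB were the least, in both libraries. FOSL1 stood at 229 RPKM (interval 224 to 234) in siNC and 361 (354 to 368) in siLINP1. JUNB came next with 116 (112 to 119) and 305 (299 to 312). JUND followed with 90.6 (87.5 to 93.7) and 66.6 (63.7 to 69.6), the single member with the lower level in siLINP1. These 3 genes formed the abundant part of the family, with a gap to the rest in siNC. JUN stood at 31.9 (30.5 to 33.3) in siNC and 61.0 (58.9 to 63.2) in siLINP1. FOSL2 stood at 21.9 (20.8 to 23.0) and 26.8 (25.5 to 28.2). FOS and FOSB were rare transcripts in siNC and remained below the other members in siLINP1. FOS stood at 2.76 (2.27 to 3.32) in siNC and 15.1 (13.8 to 16.4) in siLINP1, and FOSB at 1.66 (1.37 to 1.99) and 8.56 (7.82 to 9.34). The order of levels was thus the same in both libraries. No pair of neighbours in either order had overlapping intervals. Taken as a ratio, the intervals of JUND and JUN in siLINP1 came closest. RPKM divides by the total reads of the library, so it compares genes within a library, while the log2 fold changes below use median-of-ratios scaling.

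**Figure D2:**
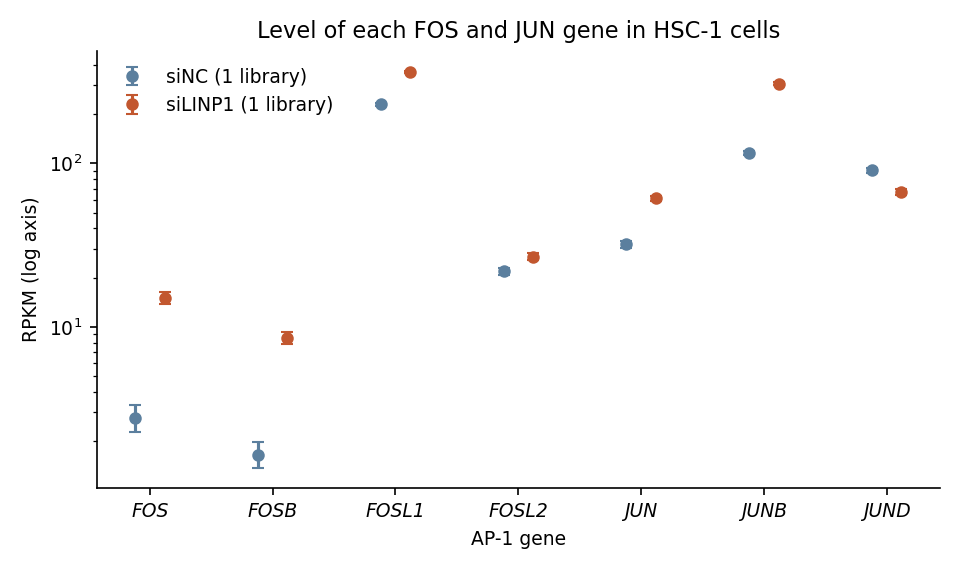
RPKM of each FOS and JUN gene (log axis) in the siNC and the siLINP1 library, 1 library each, with exact 95% Poisson intervals of the read count. FOS and FOSB lie lowest in both libraries and farthest apart between them, and JUND is the gene whose siLINP1 point is under its siNC point.

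Of the 7 members, 4 were higher in siLINP1 by more than 1.5-fold and 3 by more than 2-fold, and 0 were lower by more than 1.5-fold. Over all 19840 genes with at least 10 reads in both libraries together, 14.4% exceeded 1.5-fold upward and 13.0% downward, and 6.74% were higher by more than 2-fold. Since the members had 612 to 17299 reads, the 13336 genes with at least 100 reads are a nearer background. Of these, 8.72% exceeded 1.5-fold upward and 6.77% downward, and 2.71% were higher by more than 2-fold. The contrast was known when the family was picked, so nothing is read from these shares. The median log2 fold change was 0.85 over the members and -0.023 over the genes with at least 10 reads. The interval excluded 0 upward for 6 members and downward for JUND. Counting intervals excluded 0 for many genes, upward for 3843 and downward for 4458 of the 13336 genes with at least 100 reads. FOSL1 lay just inside 1.5-fold at 1.49-fold (1.44 to 1.53). It passed 1.5-fold, making 5 members, under each of the other 3 scalings, with log2 fold changes of 0.598 by edgeR TMM factors, 0.603 by size factors from well-read genes and 0.66 by total count. Beyond FOSL1, JUN was the next member at 1.81-fold (1.71 to 1.91).

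**Figure D3:**
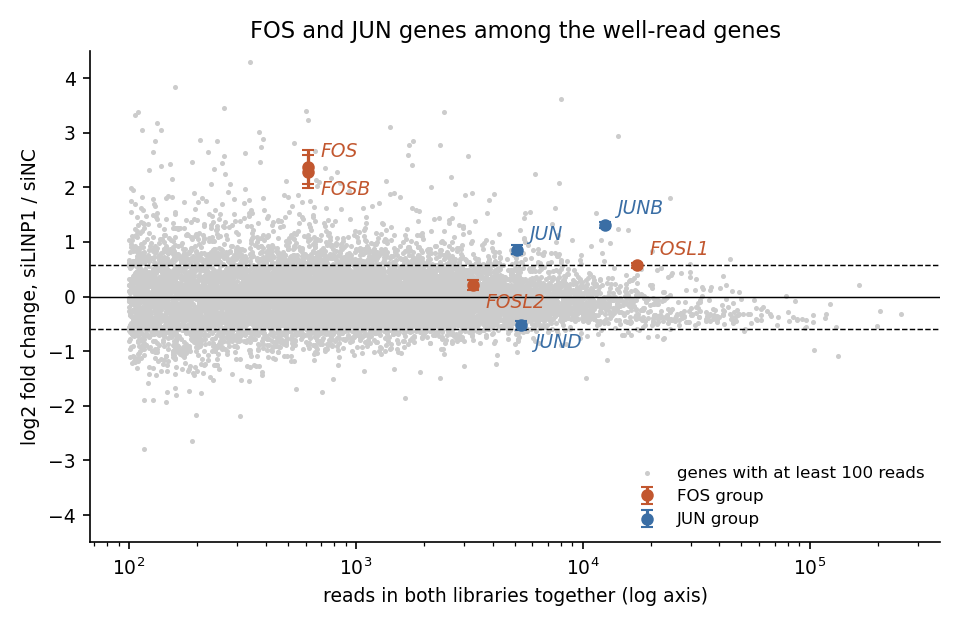
Log2 fold change of siLINP1 over siNC against the reads in both libraries together (log axis) for genes with at least 100 reads, with the FOS group and the JUN group marked and their 95% counting intervals. Dashed lines are 1.5-fold either way, and PGC, with 0 reads in siLINP1, is not drawn. FOS and FOSB lie at 2.37 and 2.28 with 612 and 615 reads, and JUND lies at -0.52.

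FOS and FOSB, the classical inducible FOS genes, had the largest differences. FOS (chromosome 14, 75745481 to 75748937, plus strand) had 112 reads in siNC and 500 in siLINP1. Its log2 fold change was 2.37 (2.07 to 2.68), a 5.16-fold higher scaled count, and it ranked 38 from the top of the 13336 genes with at least 100 reads. FOSB (chromosome 19, 45971253 to 45978437, plus strand) had 118 and 497 reads, which gave a log2 fold change of 2.28 (1.99 to 2.59) and rank 42. Both genes were thus low in siNC and had between 4 and 5 times the reads in siLINP1. The difference between their log2 fold changes was 0.084 (-0.33 to 0.50), the single interval among the 21 pairs of members that held 0. The level ratio of FOS to FOSB was 1.66 in siNC and 1.76 in siLINP1, on the RPKM scale.

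Among 4181 other coding genes with reads within 2-fold of FOS, those with a log2 fold change nearest to that of FOS were TAPBPL (134 and 594 reads), FOSB, CREB5 (158 and 665 reads), RGAG1 (65 and 312 reads) and NAV2 (159 and 618 reads). CREB5 encodes another bZIP protein of the cyclic AMP response element family. With 2 libraries this likeness is a closeness of 1 ratio.

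FOSL1 and FOSL2, the FOS relatives without a strong activation domain, differed less. FOSL1 (chromosome 11, 65659607 to 65667997, minus strand) had 7562 reads in siNC and 9737 in siLINP1, a log2 fold change of 0.57 (0.53 to 0.62). FOSL2 (chromosome 2, 28615779 to 28637516, plus strand) had 1644 and 1647 reads, which gave a log2 fold change of 0.21 (0.11 to 0.31) after scaling. Their raw reads thus differed by far less than those of FOS and FOSB, and 26.9% of the genes with at least 100 reads had a higher log2 fold change than FOSL2. FOSL2 and JUN share bases with other genes of the table. An antisense RNA, listed as FLJ31356 and again under an Ensembl identifier, covers its first 1761 bases with 5 and 10 reads, and a sense intronic RNA lies inside it with 3 and 1 reads. The table also ends FOSL2 at 28637516, whereas its GENCODE transcript runs to 28640184.

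JUNB and JUN, the inducible JUN genes, were higher in siLINP1, and JUND was lower. JUNB (chromosome 19, 12902310 to 12904125, plus strand) had 3960 and 8530 reads, which gave a log2 fold change of 1.32 (1.26 to 1.37) and a 2.49-fold higher scaled count. Of the genes with at least 100 reads, 1.38% had a higher value. JUN (chromosome 1, 59246463 to 59249785, minus strand) had 1996 and 3120 reads, which gave a log2 fold change of 0.85 (0.77 to 0.94). Its divergent neighbour LINC01135 had 1 and 0 reads. The table lists the tRNA gene TRNAN-GUU with a span of 127032826 bases that covers all of JUN, with 2 and 3 reads. JUND (chromosome 19, 18390504 to 18392466, minus strand) had 3347 reads in siNC and 2012 in siLINP1. Its log2 fold change of -0.52 (-0.61 to -0.44) is a 0.695-fold scaled count, and 8.86% of the genes with at least 100 reads had a lower value.

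Base composition moved with the fold change across genes. The median log2 fold change was 0.083 over the 2822 genes with the lowest transcript GC content and -0.19 over the 2821 genes with the highest. JUND has the highest GC content of the family at 69.9%, JUNB has 64.9%, and FOS has the lowest at 52.8%. After the trend with GC content and transcript length was removed, JUND was at -0.22, JUNB at 1.56 and FOSL1 at 0.75 on the log2 scale, so that FOSL1 passed 1.5-fold in this setting too. JUN, JUNB and JUND consist of a single exon, as do 4.16% of 19064 coding genes in GENCODE, whereas the 4 FOS genes have 4 exons each.

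The pool of FOS and JUN transcripts was larger and differently made up in siLINP1. Summed over the 7 genes it was 494 RPKM in siNC and 845 in siLINP1, a ratio of 1.71. With median-of-ratios scaling, the summed reads gave a log2 fold change of 0.68 (0.66 to 0.71). The FOS group went from 255 to 412 RPKM and the JUN group from 238 to 433. FOSL1 made up 46.4% of the pool in siNC and 42.8% in siLINP1. JUNB made up 23.5% and 36.2%, and JUND 18.3% and 7.89%. FOS and FOSB together with FOSL2 stayed small parts, with FOS at 0.558% and 1.78%, FOSB at 0.336% and 1.01% and FOSL2 at 4.43% and 3.18%. JUN made up 6.46% and 7.23%.

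**Figure D4:**
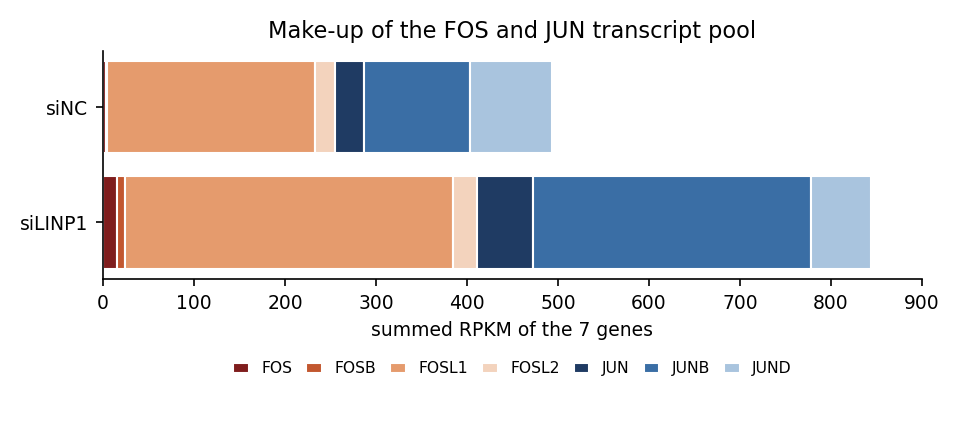
RPKM of the 7 FOS and JUN genes stacked for each library, with the horizontal axis in summed RPKM from 0. The bar reaches 494 in siNC and 845 in siLINP1, and the JUNB segment widens from 116 to 305 while the JUND segment narrows from 90.6 to 66.6.

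Ratios between members within a library do not depend on the scaling. JUNB was 1.28 times the level of JUND in siNC and 4.58 times in siLINP1, a difference in log2 fold change of 1.84 (1.74 to 1.94). JUN was 0.352 times the level of JUND in siNC and 0.916 times in siLINP1, a difference of 1.38 (1.26 to 1.49). FOSL1 exceeded JUNB 1.98 times in siNC and 1.18 times in siLINP1. Relative to FOSL1, FOS was at 0.012 in siNC and 0.0417 in siLINP1, so FOSL1 remained the far larger FOS transcript.

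The other proteins that pair with FOS or JUN are bZIP factors of the ATF, BATF and MAF families. Of 14 listed genes, 12 had at least 10 reads, and their median log2 fold change was 0.22. Beyond 1.5-fold, 2 of these 12 were higher and 0 lower. All 12 had at least 100 reads, and of all such genes 8.72% were higher and 6.77% lower. ATF3, a stress-induced partner of JUN proteins, had 1197 and 4929 reads and a log2 fold change of 2.25 (2.16 to 2.34), beside FOS and FOSB in size. MAFF, a small MAF protein, had 946 and 2014 reads, a value of 1.30 (1.19 to 1.41). Its relatives MAFG (1503 and 1804 reads) and MAFK (1268 and 1455 reads) were at 0.47 and 0.41. The well-read partners ATF4 and NFE2L2 were at 0.21 and 0.039, and BATF2 with 135 and 151 reads was at 0.37.

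The next list held kinases and SRF factors that act on the FOS and JUN genes and proteins. Beyond 1.5-fold, 2 of 26 genes were higher and 1 was lower, beside 14.4% and 13.0% of all genes with at least 10 reads. Of the 25 with at least 100 reads, 1 was higher and 1 lower, beside 8.72% and 6.77% of all such genes. The median log2 fold change of the 26 was 0.042. MAPK8 (JNK1), which phosphorylates JUN, had 341 and 510 reads and a log2 fold change of 0.79 (0.59 to 0.99). MAPK10 (JNK3) had 3 and 18 reads, too few for more than a wide interval of 1.02 to 5.20 around 2.79. MAPK3 (ERK1) was at -0.47 (-0.61 to -0.34), MAPK7 (ERK5) at -0.40 (-0.66 to -0.15) and MAP2K6, a p38 kinase kinase, at -0.65 (-0.96 to -0.35). SRF itself, the protein that binds CArG boxes, had 934 and 951 reads and a log2 fold change of 0.24 (0.10 to 0.37). Its ternary complex partners ELK1, ELK3 and ELK4 were at -0.046, 0.30 and 0.53. ELK4 had 1301 and 1629 reads, and RPS6KA3 (RSK2), which phosphorylates FOS, was at 0.33. These are mRNA levels, and kinase activity was not measured.

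FOS and JUN mRNAs and proteins are short-lived, and the list of turnover factors held ubiquitin ligases and mRNA-binding proteins. Beyond 1.5-fold, 1 of 14 genes was higher and 1 was lower, beside 8.72% and 6.77% of the genes with at least 100 reads. The median log2 fold change was 0.13. ZFP36 (tristetraprolin), which binds AU-rich elements and starts decay of the mRNA, had 1080 and 2711 reads and a log2 fold change of 1.54 (1.43 to 1.64). HNRNPD (AUF1), another AU-rich element binder, had 3413 and 1619 reads, a value of -0.87 (-0.95 to -0.78). ZFP36 was thus higher and HNRNPD lower in siLINP1. The mRNA-binding proteins ELAVL1 and ZFP36L1 of the same list differed less, at -0.31 and 0.14. The ubiquitin ligases FBXW7 and ITCH were at 0.41 and 0.34. CNOT1, the scaffold of the deadenylase complex, was at 0.11 and ZFP36L2 at -0.27.

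The pentamer ATTTA, the core of AU-rich elements, was found in the 3′ untranslated region of all 7 members and of 67.9% of 19064 coding genes. FOS held 5 copies in 806 bases and JUN 3 in 1284 bases. FOSB held 3 in 2167 bases, FOSL2 9 in 4869, JUNB 2 in 500, FOSL1 1 in 837 and JUND 1 in 747. The nonamer TTATTTATT was found in FOS and FOSL2 and in 8.48% of genes. The densest stretch of FOS is shown with ATTTA in capitals, from chr14:75748758-75748787 on the plus strand, inside the 3′ untranslated region of its last exon. The region of FOS also held 1 match to the seed of siLINP1_01 (the complement of bases 2 to 8 of its guide), as did 14.6% of coding genes. The other 6 members held none, and no member held a match to the seed of siLINP1_02, found in 12.1%. The sources used here do not name the oligonucleotide that was sequenced.
FOS: tattgtgtttttaATTTATTTAttaagatg

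Beyond 1.5-fold, 1 of 16 co-factors was higher and 1 was lower, beside 8.72% and 6.77% of the genes with at least 100 reads. The median log2 fold change was 0.12. MEN1, which encodes menin, a protein known to bind JUND, had 1646 and 736 reads and a log2 fold change of -0.95 (-1.08 to -0.83). MEN1 and JUND were thus both lower in siLINP1, and MEN1 has a GC content of 60.8% and a value of -0.80 after the trend was removed. ETS2, which can act at sites next to AP-1 sites, had 417 and 638 reads, a value of 0.82 (0.64 to 1.00), and ETS1 was at 0.41. NCOA3 and COPS5 (JAB1), which bind AP-1 proteins, were at 0.48 and 0.39. The corepressor NCOR1 was at -0.055.

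Of 35 genes listed as known AP-1 targets, 32 had at least 10 reads. Among these, 11 were beyond 1.5-fold upward, 1 downward and 20 inside, beside 14.4% upward and 13.0% downward over all genes with at least 10 reads. Of the 25 with at least 100 reads, 8 were higher and 1 lower, beside 8.72% and 6.77% of all such genes. The median log2 fold change of the 32 was 0.26. IL11, a cytokine, had 509 and 1323 reads, which gave a log2 fold change of 1.59 (1.44 to 1.74). SPHK1 (sphingosine kinase) had 695 and 1632 reads, a value of 1.44 (1.31 to 1.57). CSF2 (GM-CSF) had 187 and 339 reads, a value of 1.07 (0.81 to 1.33). DUSP1, a phosphatase that shuts off MAP kinases, had 326 and 532 reads, a value of 0.92 (0.71 to 1.12). The monocyte chemokine CCL2 went the other way, with 119 and 42 reads and a value of -1.29 (-1.84 to -0.77). The well-read targets CCND1 (cyclin D1) and CD44 were at -0.13 (-0.16 to -0.094) and -0.27 (-0.31 to -0.24).

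**Figure D5:**
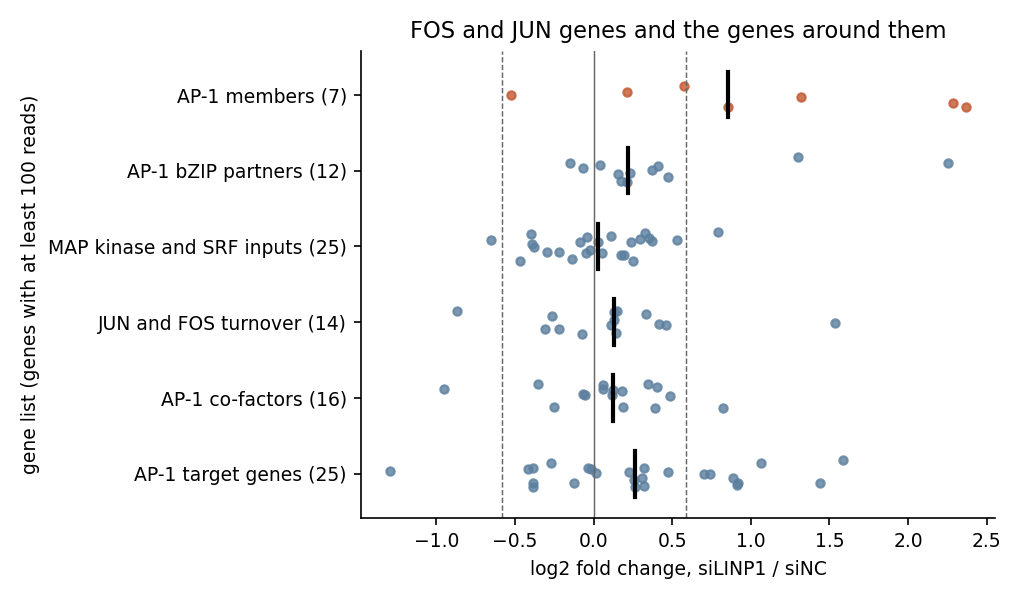
Log2 fold change of siLINP1 over siNC for the genes of each list with at least 100 reads, 1 point per gene, scattered vertically for visibility. Black bars are list medians, dashed lines are 1.5-fold either way, and the number of genes stands beside each list name. The FOS and JUN genes have a median of 0.85, and the 5 lists around them have medians between 0.030 and 0.26.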

How the data were processed

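Total RNA of HSC-1 cells was sequenced on an Illumina HiSeq instrument, aligned by the authors to GRCh37/hg19 with Tophat2 and counted per gene with HTSeq. The submitters' processing notes also name HISAT2, HISAT and Bowtie2. Versions, annotation and strand setting are not given in the sources used here, so antisense reads cannot be told apart. The authors deposited raw read counts per gene and RPKM values, which were recomputed from count, length and library total with a difference under the printed precision. The 12 other columns of per-sample values were not used.

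Size factors by the median of ratios (1.08 for siNC, 0.930 for siLINP1) scaled the counts, without a pseudocount. Genes needed at least 10 reads over both libraries. Intervals are Clopper-Pearson intervals of the split of reads, Poisson intervals for RPKM and Wald intervals for pairs of members, at 95%, and cover counting error only. A gene at 0 reads was set to a floor of 3 reads in medians. No p-value was computed, because each condition had 1 library. The members and gene lists were chosen with earlier results of these data known. Named were all members, LINP1, and in each list the 5 genes with the largest change among those with at least 100 reads and the 2 others with most reads. The 5 coding genes nearest to FOS in log2 fold change and genes that overlap a member were named too. SRF, ELK1, MAPK10, ELAVL1, ZFP36L1 and LINC01135 were added once their values were known. Some results on single genes that this rule picks are left out here. Motifs were searched in GRCh37 and in GENCODE canonical transcripts. The interval calculation was tested on simulated counts. Alternatives were total-count scaling, edgeR TMM factors, size factors of well-read genes, pseudocounts, other read minimums, TPM and removal of a GC and length trend (lowess, fraction 0.3), the last chosen after seeing the data. Factors by TMM came from edgeR 4.0.16 in R 4.3.3, and all else from Python 3.11.15 with scipy 1.17.1, pandas 2.3.3, numpy 2.4.6, matplotlib 3.10.9 and statsmodels 0.14.6.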

Additional observations from a re-analysis of the deposited data

How the results depend on the processing

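No member changed direction under any of the 6 alternatives tried. Scaling by total count gave log2 fold changes of 0.66 for FOSL1, 0.94 for JUN (and so for the family median), 1.40 for JUNB and -0.44 for JUND, and the removal of the GC and length trend, run on 11285 of 13336 genes, gave 0.75 for FOSL1, 1.56 for JUNB and -0.22 for JUND. Both put FOSL1 beyond 1.5-fold, as did edgeR TMM factors (0.598) and size factors from genes with at least 100 reads (0.603), so that 5 members were higher under 4 of the 6 alternatives and 4 under the 2 pseudocounts, while 3 stayed beyond 2-fold under every alternative. FOS ranged from 2.31 to 2.45 and FOSB from 2.23 to 2.37. The log2 ratio of the summed levels was 0.77 on RPKM and 0.86 on TPM, beside 0.68 for the summed reads with median-of-ratios scaling. Among genes with at least 10 reads, 2863 lay beyond 1.5-fold upward and 2573 downward. The counts were 7048 and 6456 at a minimum of 1 read, 1163 and 903 at 100 reads, and 387 and 252 at 1000 reads. Beyond 2-fold these were 1338 upward and 1051 downward, against 5179 and 4399, 362 and 148, and 99 and 19. No paired analysis was possible because each condition had 1 library, and for the same reason no replicate could be left out.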
